A study of Mus musculus with 405 samples.

Results

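The 10 genes described here, Bdnf, Crh, Vgf, Cartpt, Npy, Sst, Tac1, Penk, Nptx2 and Scg2, encode neuropeptides and other secreted proteins of neurons whose transcripts are known to follow electrical activity. They were taken by name, and all 10 were present among the 13304 genes of a table from a chemical screen and among the 23893 genes of a count table for the fungicide pyraclostrobin. By the labels the cultures came from the cortex of embryonic day 15 embryos of C57BL/6J dams crossed to CAST/EiJ males, while the study's methods give a slightly earlier age, so that every group shared the same hybrid background, and all of them received the mitosis inhibitors uridine 5'-triphosphate and 5-fluoro-2'-deoxyuridine on day 3 in vitro. On day 7 each received 1 chemical, or DMSO as vehicle, for 24 h at a dose chosen not to be cytotoxic, and polyadenylated RNA was sequenced. The screen held 49 vehicle libraries and 344 libraries from 297 chemicals, of which topotecan had 32, diethyltoluamide had 4, 13 chemicals had 2 each and 282 had 1. The dose was 10 µM for 257 chemicals, 1 µM for 26, 0.3 µM for 2, 0.1 µM for 9 and 0.01 µM for 3. The pyraclostrobin table held 4 libraries at 0.1 µM and 4 vehicle libraries, with 2409623 to 7833440 counts each.

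When a neuron fires, calcium that enters the cell activates transcription factors such as CREB, which binds the DNA motif TGACGTCA, and immediate early regulators such as Fos and Npas4, and secreted proteins are among the genes that follow. Bdnf encodes a growth factor that acts through the receptor TrkB and strengthens synapses, and Nptx2 encodes a secreted pentraxin that gathers AMPA receptors at excitatory synapses onto interneurons. Vgf and Scg2 encode granins, which are packed into dense-core granules and cut into smaller peptides. The others are precursors of neuropeptides. Crh gives corticotropin-releasing hormone and Cartpt the cocaine- and amphetamine-regulated peptides, Tac1 gives substance P and Penk the enkephalins, while Npy and Sst (somatostatin) are made in cortex mainly by inhibitory interneurons.

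In mm9, the build used by the authors, the genes lie apart from each other. Sst at chr16:23889667-23890930 was the shortest, with 1264 bases, and Bdnf at chr2:109514857-109567204 the longest, with 52348 bases. The others were Crh at chr3:19593401-19595396, Vgf at chr5:137506165-137509221, Cartpt at chr13:100668439-100670638, Npy at chr6:49772709-49779506, Tac1 at chr6:7505071-7512973, Penk at chr4:4060678-4065966, Nptx2 at chr5:145306756-145318347 and Scg2 at chr1:79431244-79436665. Promoters from RefSeq on build GRCm38.p6 were found for 6 of the 10 genes, Bdnf (with 7 starts), Cartpt, Npy, Scg2, Sst and Tac1. They are shown because CREB sites are a textbook feature of this gene group. The 250 bases before each start were searched on both strands for TGACGTCA and for its shorter form TGACG, read CGTCA on the opposite strand, which the full motif contains. Capitals mark the match. The full motif stood in Sst, 40 bases from the start, in Scg2, 60 bases from it, and in Cartpt, 104 bases from it, on the minus strand of the genome in each case. Tac1 held the shorter form at 192 and 38 bases and Bdnf at 30 bases, at 1 of its 7 starts, both on the plus strand. The Npy window and the other Bdnf windows held neither.
Sst, chr16:23890845-23891094: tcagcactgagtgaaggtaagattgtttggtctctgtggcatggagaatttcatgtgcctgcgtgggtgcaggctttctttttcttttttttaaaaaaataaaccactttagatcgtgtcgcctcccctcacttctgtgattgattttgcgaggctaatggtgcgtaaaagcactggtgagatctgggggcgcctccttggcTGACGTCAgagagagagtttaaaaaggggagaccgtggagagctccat
Scg2, chr1:79440027-79440276: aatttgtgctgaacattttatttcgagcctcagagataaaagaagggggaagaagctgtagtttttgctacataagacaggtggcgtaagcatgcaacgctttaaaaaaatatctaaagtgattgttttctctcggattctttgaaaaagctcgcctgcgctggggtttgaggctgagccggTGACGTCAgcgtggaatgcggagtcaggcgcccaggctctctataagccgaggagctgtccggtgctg
Cartpt, chr13:99900684-99900933: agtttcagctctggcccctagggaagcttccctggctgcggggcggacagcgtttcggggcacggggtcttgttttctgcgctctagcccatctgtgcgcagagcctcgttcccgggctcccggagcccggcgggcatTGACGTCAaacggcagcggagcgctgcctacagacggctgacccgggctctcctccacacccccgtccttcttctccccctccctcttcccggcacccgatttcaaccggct
Tac1, chr6:7554811-7555060: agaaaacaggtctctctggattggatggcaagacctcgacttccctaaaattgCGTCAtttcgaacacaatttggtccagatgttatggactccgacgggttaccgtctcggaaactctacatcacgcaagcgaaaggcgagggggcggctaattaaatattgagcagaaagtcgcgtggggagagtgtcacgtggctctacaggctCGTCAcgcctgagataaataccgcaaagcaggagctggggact
Bdnf, chr2:109692186-109692435: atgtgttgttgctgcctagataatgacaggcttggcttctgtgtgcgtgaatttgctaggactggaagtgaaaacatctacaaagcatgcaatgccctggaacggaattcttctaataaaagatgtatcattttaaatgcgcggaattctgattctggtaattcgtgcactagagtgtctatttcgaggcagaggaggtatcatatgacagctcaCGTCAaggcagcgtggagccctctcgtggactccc
Of 32536 distinct promoter windows of this length, 1.56% held the full motif and 17.9% the shorter form. A match is a description of the letters, and binding was not measured.

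Values of the screen are log2 deviations of a gene from its own median over the screen, so they compare libraries within a gene and give no level. A single vehicle library stood apart from the other 48, with the largest mean squared deviation over all genes, and it was the highest vehicle library for 7 of the 10 genes. Its value was 2.41 for Bdnf, where the next vehicle library reached 0.57, 2.80 for Vgf (next 0.57), 1.81 for Nptx2 (next 0.68) and 1.15 for Scg2 (next 0.27). Sst, at 0.30, was not raised there above the other vehicle libraries. Fos stood at 2.52 (next 0.88) and Npas4 at 2.44 (next 1.03) in the same library, and Gad1, which makes the inhibitory transmitter GABA, at 1.48 (next 0.59). Results that rest on the upper end of the vehicle range are therefore given with and without it.

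By SD, Cartpt and Crh varied most among vehicle libraries, from -1.59 to 1.88 (median -0.25) and from -2.18 to 1.78 (median 0.05), and Sst and Penk least, from -0.66 to 0.49 (median 0.03) and from -0.50 to 0.93 (median 0.03). Over the 297 chemicals, each taken as the median of its libraries, Bdnf ran from -1.71 to 2.29, Vgf from -1.34 to 2.44, Cartpt from -3.36 to 4.73, Crh from -5.06 to 2.99 and Tac1 from -4.32 to 2.85. The narrowest ranges were those of Sst (-1.14 to 0.92), Penk (-1.41 to 0.69) and Scg2 (-0.95 to 1.35). For most chemicals the error of such a value is not known, because they had 1 library. The 14 chemicals with 2 or 4 libraries give a scale for it. The SD between libraries of the same chemical (16 degrees of freedom) was 0.47 for Bdnf, against an SD of 0.48 between the 297 chemicals, 1.09 for Cartpt against 0.88, 0.31 for Sst against 0.29 and 0.88 for Crh against 1.02. The ratio of the SD between chemicals to the SD between libraries of the same chemical lay between 0.80 (Cartpt) and 1.16 (Crh), so for each gene the spread between single chemicals was close to the spread between libraries.

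**Figure D1:**
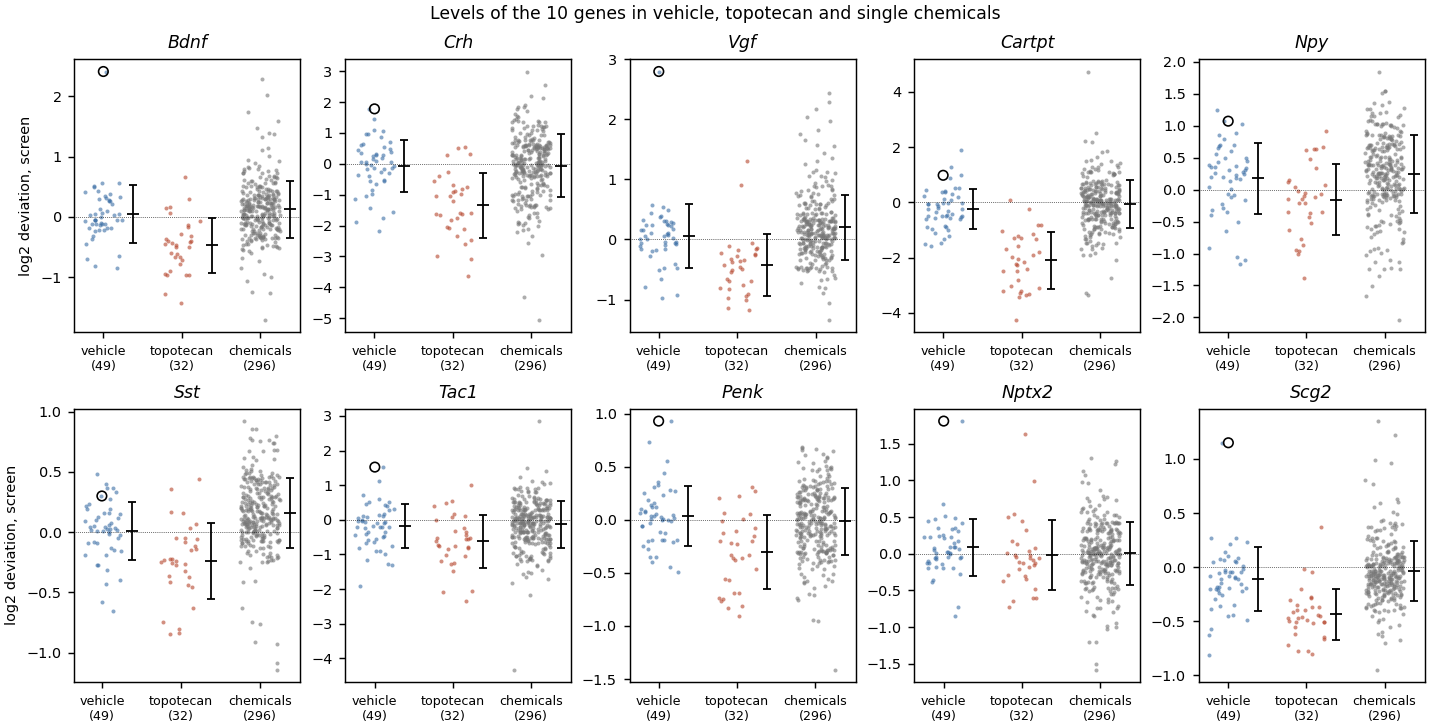
Log2 deviation of each gene (y axis) in 49 vehicle libraries, 32 topotecan libraries and the medians of the 296 other chemicals; bars give the mean and SD, and the open circle marks the vehicle library that stood apart. For Cartpt the topotecan libraries centre at -2.09 and the vehicle libraries at -0.24, while for Nptx2 the groups overlap.

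The first question was which of the 297 chemicals carried these genes outside the vehicle range. Of the 2970 values, 51 (1.72%) were above every vehicle library and 70 (2.36%) below every one, against 2.07% and 2.69% over all genes of the screen, so at the full vehicle range the 10 genes left it no more often than other genes. Without the vehicle library that stood apart, 196 values (6.60%) were above the range, against 2.35% over all genes, and 70 (2.36%) were below it, against 2.96%. The gain came from the genes that were high in that library. Vgf went from 0 chemicals above the vehicle range to 55, Bdnf from 0 to 40, Scg2 from 2 to 29 and Nptx2 from 0 to 14. Sst kept 27 chemicals above and 6 below in both cases, Npy had 10 and 8, and Penk had 0 above and 18 below.

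Chemicals were ranked by the median of their 10 values, which lay between -0.61 and 1.34 in the vehicle libraries and between -0.61 and 0.42 without the library that stood apart. Fenpropathrin, a pyrethroid insecticide that holds sodium channels open, ranked first at 1.81 and metiram-zinc, a dithiocarbamate fungicide, second at 1.46. These 2 alone exceeded all vehicle libraries, and 36 chemicals exceeded the 48 others. Fenpropathrin was among the 3 highest chemicals for 8 of the 10 genes, all but Npy and Penk. Its values were 4.73 for Cartpt, 2.99 for Crh, 2.85 for Tac1, 2.44 for Vgf and 2.29 for Bdnf, and 6 of its 10 values exceeded every vehicle library. Metiram-zinc, with 2.50 for Cartpt, 1.97 for Vgf and 1.75 for Bdnf, had all 10 genes among the 30 highest chemicals, as fenpropathrin did. The median of 20 activity-induced regulators was 1.06 in fenpropathrin and 0.37 in metiram-zinc, and that of 10 interneuron markers 0.12 and -0.24. Cyfluthrin (median 1.04), dicofol (0.97), niclosamide (0.85) and lindane (0.84), a blocker of GABA-gated chloride channels, followed. Lindane had 2.29 for Vgf and 1.15 for Bdnf but -0.0070 for Crh. The genes did not always stand together, since diazinon was the highest chemical for Npy, at 1.85, with 0.19 for Bdnf and -0.56 for Nptx2.

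Below all vehicle libraries in this ranking lay 6 chemicals. The lowest was camptothecin, a topoisomerase 1 inhibitor (-1.07), followed by pyraclostrobin (-1.04), thiabendazole (-0.92), hexythiazox (-0.92), pyrimethanil (-0.65) and diniconazole (-0.62). The pyraclostrobin value comes from library 428, which stood apart in the count table described further on. Thiabendazole was among the 3 lowest chemicals for Bdnf (-1.71), Vgf (-1.34), Cartpt (-2.72), Penk (-1.41) and Scg2 (-0.70), while its Npy stood at 0.23. Hexythiazox was lowest for Scg2 (-0.95) and among the 3 lowest for Vgf (-0.89) and Penk (-0.96). Other low values belonged to single genes: butafenacil had -5.06 for Crh but 0.06 for Tac1, and emamectin benzoate had -3.36 for Cartpt. Trifloxystrobin, a fungicide, was split, with 1.47 for Bdnf and 1.44 for Vgf but -1.5 for Nptx2, -1.04 for Tac1 and -0.91 for Sst. In all, 16 chemicals had 5 or more of the genes among the 30 highest chemicals, 12 had 5 or more among the 30 lowest, and 79 had none in either. The chemicals named in this ranking had 1 library each, and none of these ranks is a test.

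**Figure D2:**
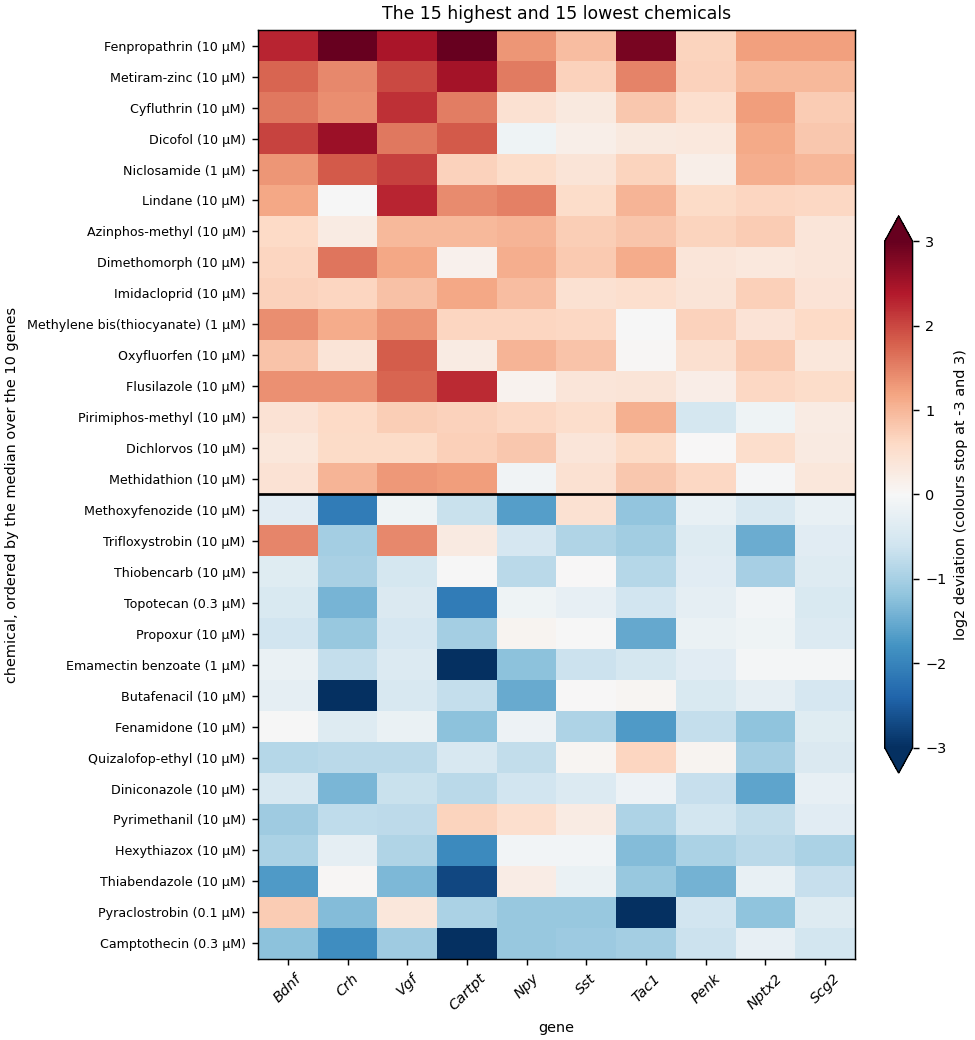
Log2 deviation (colour, stopping at -3 and 3) of the 10 genes (columns) in the 15 chemicals with the highest and the 15 with the lowest median over the genes (rows, with the dose in µM). Fenpropathrin and metiram-zinc are red across all 10 genes, while pyraclostrobin and trifloxystrobin hold red for Bdnf and Vgf beside blue for Sst, Tac1 and Nptx2.

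To see whether the 10 genes moved as a group or in subsets, their values were correlated over the 297 chemicals. The points share their normalization and batch removal, and the coefficients are a description. All 45 pairs had a Spearman coefficient above 0, with a median of 0.35 and a range from 0.14 to 0.72. The median coefficient of a member to all genes of the screen lay between -0.007 (Scg2) and 0.002 (Sst). The 5 pairs over 0.5 joined Bdnf, Vgf, Scg2 and Cartpt: Bdnf with Vgf at 0.72, Vgf with Scg2 at 0.71, Bdnf with Scg2 at 0.70, Cartpt with Scg2 at 0.56 and Vgf with Cartpt at 0.55. Npy was least tied to the rest, with a median of 0.19 to the 9 other genes and its highest value, 0.34, to Sst. Over the 49 vehicle libraries the median over pairs was 0.28, or 0.24 without the library that stood apart. There 44 of 45 pairs were above 0, so positive coefficients were also usual with no chemical. Single pairs differed. Bdnf with Scg2 was alike, at 0.71 in vehicle, while Bdnf with Crh was 0.03 in vehicle and 0.36 over chemicals, and Vgf with Tac1 0.11 and 0.44. Sst with Penk was 0.65 in vehicle and 0.42 over chemicals.

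The genes most like each member over all 13304 genes differed between the subsets. Spred3 was the nearest gene to both Bdnf (0.73) and Vgf (0.77), and Fos, the immediate early transcription factor, was near both (0.70 and 0.69), as was Etv5 to Vgf (0.70). Hdac9 was nearest to Scg2 (0.73) and Nrsn1 to Cartpt (0.63), with the granin Chgb at 0.56. For Sst the nearest was Gad1 (0.55, and 0.77 in vehicle), and for Penk it was Pnoc, the precursor of nociceptin (0.45). Nptx2 was closest to Rgs4 (0.55) and Kit (0.52), with the activity-induced factor Npas4 at 0.49. Besides Penk, also Crh, Npy and Tac1 had no gene above 0.5. Atp1b1 (0.41) was nearest to Crh, Sst (0.34) to Npy and Nap1l5 (0.49) to Tac1. Nap1l5 was also among the 5 nearest genes of Cartpt, Sst and Scg2.

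**Figure D3:**
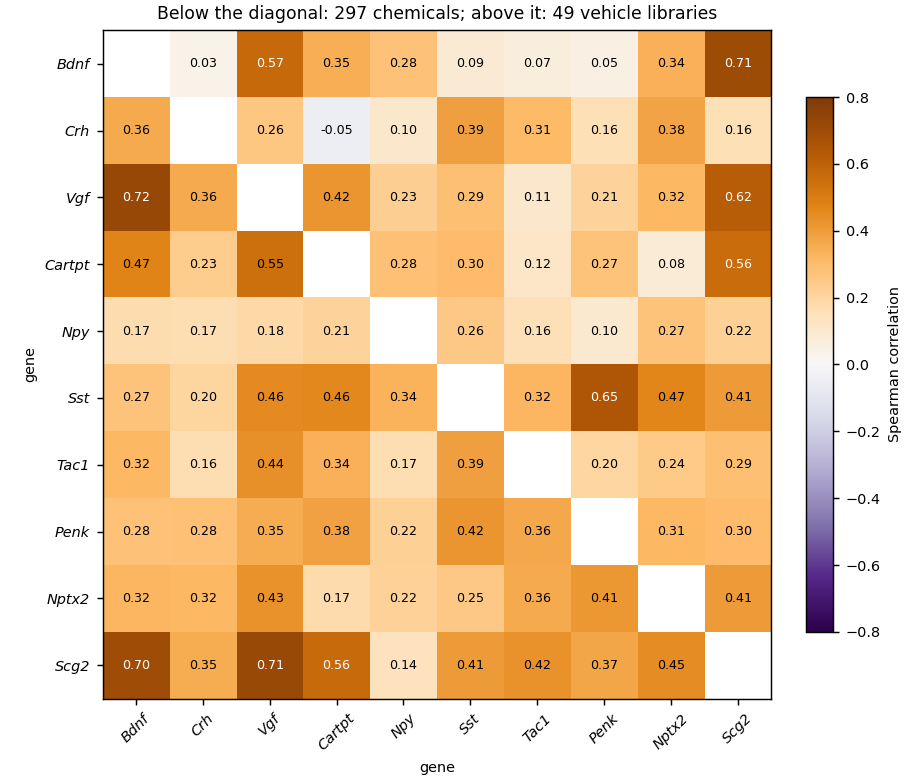
Spearman coefficient for each pair of the 10 genes, over 297 chemicals below the diagonal and over 49 vehicle libraries above it. The darkest cells below the diagonal join Bdnf, Vgf and Scg2 (0.70 to 0.72), and the row of Npy is the palest.

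Topotecan at 0.3 µM, an inhibitor of topoisomerase 1, was the chemical with enough libraries to test each gene closely. With 32 libraries against 49 of vehicle, 9 of the 10 genes fell (limma, adjusted p under 0.05 over all genes), whereas 20.9% of all genes fell. The median difference was -0.39 for the 10 genes and 0.03 for all genes. The labels do not say which libraries came from separate cultures. The p-values for topotecan, for replicated chemicals and for counts therefore measure only the spread between libraries. Those for classes and for cyano pyrethroids, where each chemical enters as its median, measure the spread between chemicals, whose doses are not all the same. In bulk RNA, fewer cells of a type and less RNA per cell cannot be told apart.

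Cartpt showed the largest difference. Its values ran from -4.25 to 0.09 with a median of -2.10 in topotecan, and from -1.59 to 1.88 with a median of -0.25 in vehicle. Most topotecan libraries lay below most vehicle libraries although the ranges overlapped, and the difference was -1.86 ± 0.19 (SE, adjusted p = 6.17e-14 by limma). Crh followed, with -3.65 to 0.54 (median -1.39) in topotecan against -2.18 to 1.78 (median 0.05), a difference of -1.28 ± 0.21 (adjusted p = 2.68e-07 by limma). Bdnf, the growth factor, ran from -1.42 to 0.66 (median -0.46) against -0.84 to 2.41 (median -0.04), and differed by -0.51 ± 0.11 (adjusted p = 3.18e-05 by limma). In Bdnf 27 of 32 topotecan libraries were below the vehicle median, and in Cartpt 30 of 32 were.

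The granins also fell, Vgf by 0.49 ± 0.12 (adjusted p = 0.000413 by limma) and Scg2 by 0.33 ± 0.06 (adjusted p = 5.83e-06 by limma), each with topotecan libraries on both sides of the vehicle median but 30 and 29 of 32 below it. Among the other precursors Tac1 differed by -0.43 ± 0.15, Penk by -0.34 ± 0.07, Npy by -0.33 ± 0.13 and Sst by -0.25 ± 0.06 (adjusted p = 0.0167, 3.14e-05, 0.0249 and 0.000472 by limma). Nptx2 did not pass, at -0.11 ± 0.10 (adjusted p = 0.361 by limma), with libraries from -0.73 to 1.64.

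Around the members, 10 of 20 activity-induced regulators fell and 2 rose, with Homer1 at -0.42, Nr4a3 at -0.57, Egr1 at -0.52 and Egr4 at -0.94. Of 15 genes for granules and peptide processing 9 fell and 1 rose, among them Pcsk2, which cuts prohormones (-0.93), Ptprn2, a granule membrane protein (-1.72), and the granule priming factors Cadps (-1.23) and Cadps2 (-1.72). Of 9 other neuropeptide precursors Nppc (-1.26), Pnoc (-0.70) and Adcyap1 (-0.34) fell and Cck rose (0.26). Of 16 receptors and binding partners 9 rose and 3 fell, where 24.8% of all genes rose and 20.9% fell, including Npy2r, a receptor of Npy (0.94), and Sstr1, a receptor of somatostatin (0.33), while Ntrk2, the receptor of Bdnf, fell (-0.83). Of the 10 interneuron markers 4 fell and 1 rose, with Gad2 at -0.62, and 5 of 6 astrocyte markers fell, with Gfap at -0.72. Of 8 excitatory neuron markers 6 rose and 2 fell, 1 of 4 microglia markers fell, and none of 7 fibroblast and smooth muscle markers passed. Their part in the change of the 10 genes was not tested.

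Topotecan, camptothecin (0.3 µM) and irinotecan (10 µM) made up the class of topoisomerase 1 inhibitors, compared with 294 other chemicals. Cartpt was lower, at -1.89 ± 0.50 (adjusted p = 0.00371 by limma), and Sst at -0.56 ± 0.17 (adjusted p = 0.013 by limma), where 6.07% of all genes fell. The chemicals were unlike each other. Cartpt stood at -3.28 in camptothecin, -2.10 in topotecan and -0.40 in irinotecan, and Sst at -1.09, -0.24 and 0.13. Bdnf stood at -1.24, -0.46 and -0.06 and did not pass. Without camptothecin neither gene passed (adjusted p = 0.652 for Cartpt and 1.0 for Sst by limma), and without topotecan Cartpt did not (adjusted p = 0.0563 by limma).

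Insecticides that act on neuronal firing were compared next, since they bear most directly on genes that follow activity. The 12 pyrethroids, of which 10 were at 10 µM, allethrin was at 1 µM and tefluthrin at 0.1 µM, were set against 285 other chemicals. Vgf rose by 0.71 ± 0.15 (adjusted p = 0.0114 by limma), with 10 of 12 pyrethroids above the median of the others, and Cartpt by 0.96 ± 0.25 (adjusted p = 0.0469 by limma), with 11 of 12. Only 0.256% of all genes rose. The Vgf values were 2.44 for fenpropathrin, 2.18 for cyfluthrin, 1.55 for tefluthrin, 1.04 for S-bioallethrin and 0.89 for permethrin, and ran down to 0.11 for tetramethrin and -0.16 for esfenvalerate. Cartpt ran from -0.09 for bifenthrin to 4.73 for fenpropathrin with a median of 0.55. Bdnf differed by 0.41 ± 0.14, Nptx2 by 0.43 ± 0.12, Scg2 by 0.28 ± 0.08, Tac1 by 0.56 ± 0.20 and Penk by 0.29 ± 0.09, none of which passed (adjusted p = 0.138, 0.0704, 0.075, 0.156 and 0.105 by limma). Npy and Sst differed by -0.03 ± 0.18 and 0.12 ± 0.09 and did not pass.

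Both calls changed with single chemicals left out. Without fenpropathrin Vgf differed by 0.57 (adjusted p = 0.211 by limma) and Cartpt by 0.61 (adjusted p = 0.50 by limma), and without cyfluthrin neither passed (adjusted p = 0.122 for Vgf and 0.187 for Cartpt by limma). Cartpt also missed the threshold, with a difference of 0.95 to 0.99, without cypermethrin, permethrin, resmethrin, S-bioallethrin or tefluthrin (adjusted p = 0.0501 to 0.0611 by limma). With single libraries (adjusted p = 0.0588 by limma) and with variable genes (adjusted p = 0.0737 by limma) Cartpt was lost and Vgf held. Without esfenvalerate, the lowest pyrethroid for Bdnf (-0.53), 6 of the 10 genes passed. Calls over all 13304 genes also rose with that removal, from 60 to 142. None of the 20 activity-induced regulators passed in this class. Of the cell type markers only Maf (-0.24) passed, and of the granule genes Ptprn (0.28), a granule membrane protein.

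Pyrethroids with a cyano group on the alcohol part of the molecule (cyfluthrin, cypermethrin, esfenvalerate and fenpropathrin) were compared with those that lack it (bifenthrin, permethrin, prallethrin, resmethrin, S-bioallethrin and tetramethrin), all at 10 µM for 24 h. This was 1 comparison over 10 genes, and no gene passed (limma, adjusted over all genes), nor did any other gene of the screen (0.0%). At an unadjusted p under 0.05, a level at which all genes were not counted, there were 3. Bdnf was 0.74 higher with the cyano group (95% interval 0.15 to 1.33, adjusted p = 0.727 by limma), Cartpt 1.28 higher (0.19 to 2.36, adjusted p = 0.767 by limma) and Scg2 0.42 higher (0.08 to 0.77, adjusted p = 0.757 by limma). The interval was -0.05 to 1.27 for Vgf, -0.27 to 2.31 for Crh, -0.09 to 1.60 for Tac1, -0.04 to 1.03 for Nptx2, -0.15 to 0.64 for Penk, -0.38 to 1.17 for Npy and -0.29 to 0.45 for Sst. The cyano compounds spread widely, as Bdnf stood at 2.29, 1.59, 0.83 and -0.53, against -0.07 to 0.68 in the compounds without the group. Without esfenvalerate the difference in Bdnf was 1.27 (adjusted p = 0.0398 by limma), and it was then the member that passed.

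In fungicides that block the Qo site of mitochondrial complex III, 3 of the genes fell. These 6 chemicals, azoxystrobin and pyraclostrobin at 0.1 µM, fluoxastrobin at 1 µM and famoxadone, fenamidone and trifloxystrobin at 10 µM, were compared with 291 other chemicals. Sst (-0.70 ± 0.11, adjusted p = 8.31e-08 by limma), Tac1 (-1.35 ± 0.27, adjusted p = 1.54e-05 by limma) and Nptx2 (-0.77 ± 0.17, adjusted p = 0.000126 by limma) fell, and the calls were 3 of 10 genes where 13.6% of all genes fell. Sst stood at -1.14 in pyraclostrobin, -0.93 in fenamidone, -0.91 in trifloxystrobin, -0.23 in famoxadone, -0.04 in fluoxastrobin and 0.07 in azoxystrobin. Nptx2 followed the same split, from -1.5 in trifloxystrobin and -1.20 in both pyraclostrobin and fenamidone to -0.66, -0.13 and 0.18. Tac1 stood at -4.32 in pyraclostrobin, -1.71 in fenamidone, -1.09 in famoxadone and -1.04 in trifloxystrobin, and at -0.48 and -0.08 in the last 2. The pyraclostrobin library stood apart in the count table described further on. Without it the difference was -0.78 for Tac1 (adjusted p = 0.045 by limma), -0.58 (adjusted p = 0.000125 by limma) for Sst and -0.68 (adjusted p = 0.00436 by limma) for Nptx2, and all 3 calls held. For all 3 genes the class had 5 or 6 of its 6 chemicals below the median of the others. In the count table, libraries 702 to 704 had more Nptx2 with pyraclostrobin than with vehicle.

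The other 7 genes did not pass. Bdnf differed by 0.29 ± 0.20 and Vgf by 0.06 ± 0.22, and trifloxystrobin alone had 1.47 and 1.44. Npy differed by -0.55 ± 0.25 (adjusted p = 0.106 by limma), Penk by -0.29 ± 0.13 (adjusted p = 0.0931 by limma), Scg2 by -0.20 ± 0.11, Cartpt by -0.28 ± 0.36 and Crh by -0.29 ± 0.42. Of 20 activity-induced regulators Egr3 (-0.79), Npas4 (-0.77) and Nr4a2 (-0.34) fell and none rose. Markers of other cells moved with this class. Of 10 interneuron markers 6 fell, with Gad2 at -1.17, Gad1 at -0.84 and Slc32a1 at -0.82, and 5 of 8 excitatory neuron markers fell, with Slc17a7 at -0.47. Of 7 fibroblast and smooth muscle markers 6 rose, with Acta2 at 1.54, and 3 of 6 astrocyte markers rose, with Gfap at 0.70. Among all genes 6.99% rose. Of 15 granule genes 9 fell and 1 rose, of 9 other neuropeptide precursors Pnoc (-1.07), Cort (-0.75) and Cck (-0.48) fell, and of 16 receptors and partners 5 fell, among them Nptxr, the receptor of the pentraxins (-0.34). The part of these marker changes in the fall of Sst, Tac1 and Nptx2 was not tested.

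Complex I inhibitors, with 4 chemicals at 0.01 or 0.1 µM, had no member past the threshold. Their values for Tac1 were -2.16 in fenpyroximate, -0.63 in rotenone, -0.43 in pyridaben and 0.58 in tebufenpyrad, and for Cartpt -1.53, -0.78, -1.11 and -0.59. In all, 7 of the 10 classes had no call in 70 tests of these genes by limma, where 0.686% of all tests in these classes passed. Of the 70, 14 were at an unadjusted p under 0.05, a level at which all genes were not counted. With the vehicle libraries as the reference, organophosphate insecticides had 2 calls and complex I inhibitors 1, and topoisomerase 1 inhibitors had 1 in place of 2. For organophosphates the calls over all 13304 genes rose at the same time, from 9 to 202. Such shares are not given here for the other classes.

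**Figure D4:**
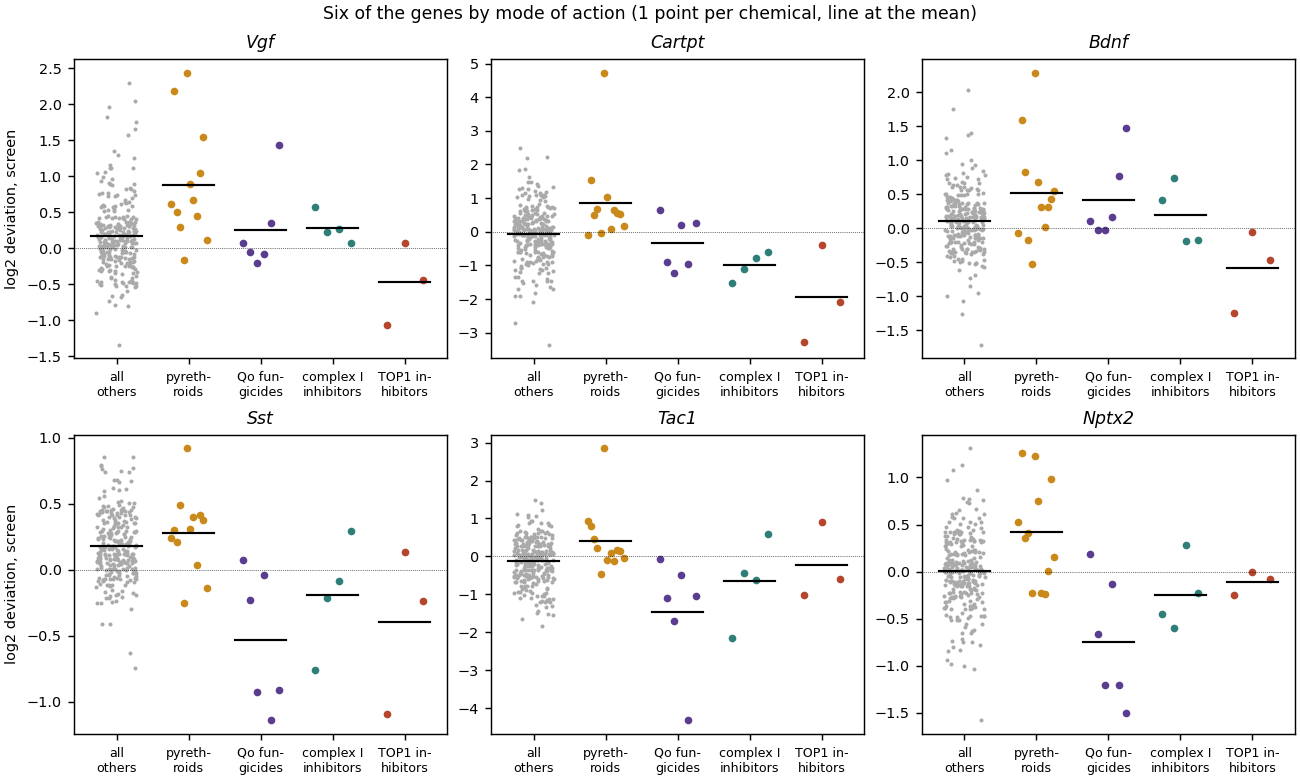
Log2 deviation of 6 of the genes (y axis) in pyrethroids, Qo fungicides, complex I inhibitors, topoisomerase 1 inhibitors and all other chemicals, with 1 point per chemical and a line at the mean. Vgf is shifted up in pyrethroids, from -0.16 to 2.44, and Sst and Tac1 are shifted down in Qo fungicides, where pyraclostrobin lies at -4.32 for Tac1.

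Fenamidone had 2 libraries and could be compared with vehicle directly, though it also belongs to the Qo class above. Sst stood at -0.68 and -1.18 (difference -0.94 ± 0.19), Nptx2 at -1.60 and -0.81 (-1.29 ± 0.28), Penk at -0.59 and -0.82 (-0.74 ± 0.22) and Tac1 at -2.35 and -1.08 (-1.53 ± 0.45). All 4 fell (adjusted p = 0.000101, 0.000421, 0.0102 and 0.0121 by limma), where 11% of all genes fell. Both libraries lay below every vehicle library for Sst and Penk. With 1 library left out, the other was assumed to vary like the remaining groups, and some calls were lost. Sst was at -0.69 without the second library (adjusted p = 0.138 by limma), and Nptx2 and Tac1 were both at -0.89 without the first (adjusted p = 0.152 and 0.489 by limma). Penk, at -0.86 and -0.63, missed the threshold in both cases (adjusted p = 0.0574 and 0.346 by limma). Bdnf, with 0.60 and -0.63, and Cartpt, with -0.07 and -2.41, had a library on each side of the vehicle median. Of the interneuron markers 6 of 10 fell and 1 rose, with Gad2 at -2.43, and 5 of 8 excitatory neuron markers fell, the glutamate transporter Slc17a7 among them. Of 7 fibroblast and smooth muscle markers 5 rose, and so did 3 of 6 astrocyte, 1 of 4 microglia and 2 of 4 oligodendrocyte lineage markers. Among all genes 4.56% rose. Of 15 granule genes 10 fell, and of 16 receptors and partners 5 fell, with Crhbp at -2.41. Pnoc (-1.51) and Cck (-0.78) fell among 9 other precursors, and Egr4 (-1.84) and Egr3 (-1.05) among 20 activity-induced regulators. The part of the marker changes was not tested.

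Chlorothalonil (1 µM), a fungicide, had Nptx2 at 0.89 and 1.74, higher than vehicle by 1.23 ± 0.28 (adjusted p = 0.00898 by limma), and 0.684% of all genes rose. Both values were above the vehicle range once the library that stood apart was set aside, and below its value of 1.81. Without the second library the difference was 0.81 and the call was lost (adjusted p = 0.535 by limma). Of 20 activity-induced regulators Gadd45b (1.56), Arc (1.46) and Egr1 (1.03) rose. Of 6 astrocyte markers Gja1 (-0.81) and Slc1a3 (-0.66) fell, where 0.496% of all genes fell. The part of these changes was not tested. The other 12 chemicals with 2 or 4 libraries had no call in 120 tests of these genes by limma, against 1.11% over all their tests. Of the 120, 8 were at an unadjusted p under 0.05, a level at which all genes were not counted. Without the vehicle library that stood apart, mancozeb passed for Vgf (1.26 ± 0.28, adjusted p = 0.0151 by limma) and for Bdnf (1.01 ± 0.27, adjusted p = 0.0482 by limma), with Vgf at 0.82 and 1.71 in its libraries, and famoxadone passed for Nptx2 at -0.71 (adjusted p = 0.0372 by limma). Calls over all 13304 genes went from 36 to 114 for mancozeb and from 1482 to 1584 for famoxadone. The library left out was the highest vehicle library for Vgf, Bdnf and Nptx2, so its removal lowered their vehicle mean and spread.

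The pyraclostrobin experiment gave counts, and so levels per library. Its libraries carry the numbers 428, 702, 703 and 704, each once with the fungicide and once with vehicle, and the one numbered 428 with the fungicide is also the pyraclostrobin library of the screen. Both libraries numbered 428 stood apart from their groups, with a correlation of log values to the median of their own group of 0.949 and 0.933, while the other 6 libraries were all higher, at up to 0.987. With all 8 libraries 9 of the 10 genes had enough counts to test, Crh having 1 to 9 counts per library, and no member passed at an adjusted p under 0.01 by edgeR, where 21.3% of all genes passed. At an unadjusted p under 0.05, a level at which all genes were not counted, there were 3 members, and DESeq2 called 1. With the library number as a replicate block, Cartpt and Penk passed (adjusted p = 0.0021 and 0.00541 by edgeR). Leaving out both libraries numbered 428, a choice made after the data were seen, 39.2% of all genes and 6 of the 9 members passed.

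Counts scaled to library size (CPM, with TMM factors) show where the groups part. Vgf stood at 215, 228 and 250 with pyraclostrobin in libraries 702, 703 and 704, and at 113, 109 and 141 with vehicle, without overlap. In the pair numbered 428 it stood at 67.9 and 77.0, below all others. The log2 difference was 0.78 ± 0.33 over 4 against 4 (adjusted p = 0.0897 by edgeR) and 0.92 ± 0.09 over 3 against 3 (adjusted p = 2.21e-07 by edgeR). Scg2, the other granin, stood at 665, 748 and 662 against 500, 439 and 483, and at 217 against 325 in the pair numbered 428. Its difference went from 0.39 ± 0.31 (adjusted p = 0.355 by edgeR) to 0.55 ± 0.07 (adjusted p = 2.99e-06 by edgeR).

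Nptx2 stood at 22.9, 19.8 and 27.3 CPM against 14.4, 12.0 and 14.3, but at 4.32 against 20 in the pair numbered 428. It differed by 0.31 ± 0.40 with that pair (adjusted p = 0.585 by edgeR) and rose by 0.80 ± 0.18 without it (adjusted p = 0.00131 by edgeR). In the screen, where library 428 is the pyraclostrobin value, Nptx2 was at -1.20 and it was at 4.32 CPM in the count table, below the 3 other fungicide libraries. Bdnf stood at 32.2, 36.4, 41.9 and 37.9 CPM against 11.1, 35, 27.2 and 35.6, all but 1 fungicide library above all vehicle libraries, and did not pass in either fit (0.43 ± 0.29, adjusted p = 0.27, and 0.27 ± 0.14, adjusted p = 0.122 by edgeR).

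The neuropeptide precursors were lower or alike. Cartpt stood at 1.18, 3.76, 4.57 and 5.13 CPM, from 3 to 13 counts, against 4.99, 12.8, 10.1 and 13.2. Only the vehicle library numbered 428 came within the fungicide range. The difference was -1.5 ± 0.40 (adjusted p = 0.0141 by edgeR), and -1.40 ± 0.27 without that pair (adjusted p = 0.000229 by edgeR). Penk stood at 5.49, 21.8, 20.2 and 21.3 CPM against 14.3, 34.6, 36.2 and 33.2, and fell without the pair (-0.72 ± 0.14, adjusted p = 0.000302 by edgeR), having been -0.80 ± 0.38 with it (adjusted p = 0.127 by edgeR).

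Sst stood at 248, 217 and 239 CPM against 276, 300 and 324 in libraries 702 to 704, and at 31 against 219 in the pair numbered 428. Its difference was -0.61 ± 0.45 over all libraries (adjusted p = 0.322 by edgeR) and -0.36 ± 0.08 without that pair (adjusted p = 0.000657 by edgeR). The screen value of -1.14 for Sst under pyraclostrobin comes from library 428, and no other fungicide library of the count table was that low. Tac1 had few counts, 0, 4, 5 and 4 with pyraclostrobin against 14, 10, 29 and 27, which is 1.5 to 1.9 CPM against 3.89 to 4.99 outside the library with 0. That 0 allows up to 3 counts, or 1.25 CPM, for counting error only. The difference was -1.71 ± 0.48 (adjusted p = 0.0178 by edgeR) and -1.24 ± 0.39 (adjusted p = 0.013 by edgeR), neither past 0.01. Npy stood at 2.75, 48.5, 43 and 41.9 CPM against 15.0, 38.9, 41 and 35 and did not pass (0.05 ± 0.54, adjusted p = 0.95, and 0.22 ± 0.12, adjusted p = 0.151 by edgeR).

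**Figure D5:**
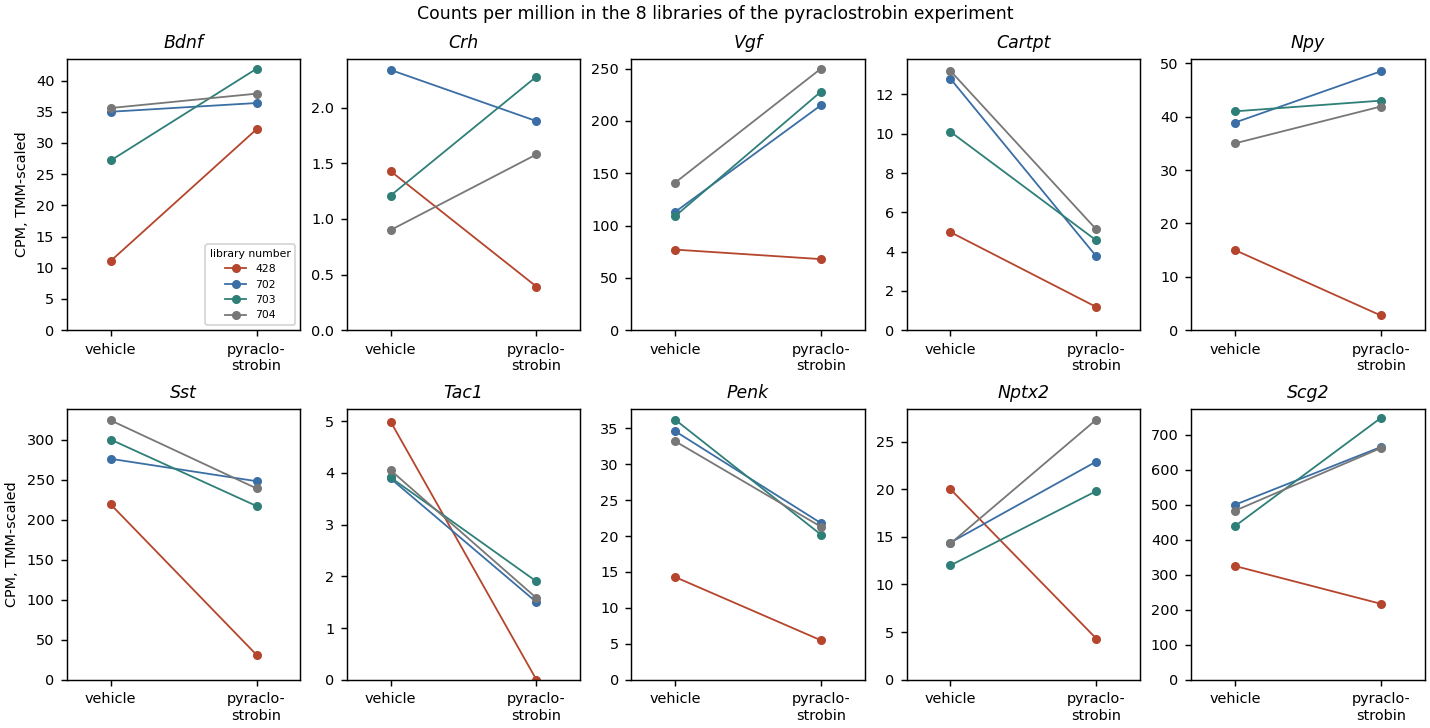
TMM-scaled CPM (y axis, from 0) of each gene in the 4 vehicle and 4 pyraclostrobin libraries, with a line joining libraries of the same number. Lines 702 to 704 rise for Vgf, Scg2 and Nptx2 and fall for Cartpt, Penk, Sst and Tac1, while line 428 falls steeply for Nptx2, Npy and Sst.

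Of the other genes in these lists, counted over all 8 libraries unless said, 4 of 19 activity-induced regulators rose with pyraclostrobin, Fosb by 1.76, Gadd45b by 1.72 and Dusp1 by 0.97 among them, and Egr3 fell (-1.45). Among all 12324 genes tested, 1495 rose and 1136 fell. Without the libraries numbered 428, 10 of the activity-induced regulators rose and 2 fell, where 2456 of all 12441 genes rose and 2418 fell. Of 15 granule genes 9 fell and 1 rose, with the prohormone convertase Pcsk2 at -1.37 and the granin Chga at -1.03, and of 5 other precursors Pnoc (-1.55) and Adcyap1 (-1.06) fell. Of 13 receptors and partners 4 fell, among them Nptxr (-0.74) and Crhbp, which binds corticotropin-releasing hormone (-1.85). The summed level of 10 interneuron markers was 183 to 601 CPM with the fungicide and 519 to 1090 with vehicle, and 3 of 10 fell. Without the libraries numbered 428, where the 6 members passed, 8 of 10 fell and the sums parted, at 511 to 601 against 1010 to 1090. The 8 excitatory neuron markers summed to 950 to 1080 CPM against 1210 to 1420, with Slc17a7 (-1.58) and Emx1 (-0.78) lower, and 3 of 8 were lower without the libraries numbered 428. The 7 fibroblast and smooth muscle markers summed to 1310 to 1860 CPM against 92 to 207 and all rose, and 6 microglia markers rose, with sums of 74.7 to 139 against 20.6 to 27.3. Astrocyte markers summed to 3530 CPM in the fungicide library numbered 428 and to 1020 to 1150 in the other 3, against 615 to 979 with vehicle, with 1 of 6 tested markers higher, or 5 higher and 1 lower without both libraries of that number. Without these 11 of 15 granule genes, 4 of 5 other precursors and 6 of 13 receptors and partners fell. The oligodendrocyte lineage markers summed to 171 to 298 CPM against 80.6 to 183, and 1 of 4 tested rose. No list had all its markers at 0 in all libraries. The part of these shifts in the values of the 10 genes was not tested.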

How the data were processed

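Each library came from cultured cells exposed to 1 chemical or vehicle, with polyadenylated RNA read as short paired ends. The authors filtered reads, aligned them to mm9 with TopHat and removed ribosomal RNA reads. They deposited the pyraclostrobin table as raw counts per RefSeq gene symbol. For the screen the authors deposited log10 values of RPKM that had been quantile-normalized, centred on each gene's median and freed of culture and sequencing batch by a mixed model. These values hold no levels, their depth is unknown, and the labels name no batches. Another table was not used because its 6 columns share 1 name, so sulforaphane before fenamidone was not analysed here.

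Log10 values were converted to log2 and compared with limma 3.58.1 in R 4.3.3, without a variance trend, since centred values carry no level. P-values were adjusted by Benjamini-Hochberg over 13304 genes at 0.05. Topotecan and vehicle entered a fit of their own. Replicated chemicals shared a fit with vehicle. For classes and cyano pyrethroids each chemical entered as its median, and the class was compared with all other chemicals. Classes were assigned from general knowledge of the modes of action. Counts were tested with edgeR 4.0.16 (quasi-likelihood, TMM, a filter of 10 or more counts in 4 or more libraries, adjusted p under 0.01), with DESeq2 1.42.0 as an alternative. The edgeR and limma fits were tested on simulated data. The numbers of the 8 count libraries were checked for pairing: correlations of deviations between libraries of the same number were 0.378, 0.104, -0.023 and 0.174, not above 0.1 for every number, and the study names matched vehicle controls without saying what was matched, so the fit without a block was kept and the blocked calls are given beside it. Coordinates are 1-based.

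Named genes were all 10 members, for each member the 3 highest and 3 lowest chemicals and the 5 genes with the highest Spearman coefficient over 297 chemicals, and up to 4 genes per list and comparison with the smallest adjusted p. Members, lists, classes and tests were chosen with earlier results of these data known. Further chemicals in the ranking, and Fos, Npas4 and Gad1 in the vehicle library, were named after their values were seen. Alternatives covered the threshold, a variance trend, the 5121 genes with an SD of log10 values over 0.1, single libraries, vehicle as the reference, the filter, size factors, a replicate block and the removal of each library or chemical in turn.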

Additional observations from a re-analysis of the deposited data

Results flagged for a closer look

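In 100 groups of 4 to 10 values, 12 values lay far from the rest of their group by Dixon's criterion, which chance alone gives in about 1 group in 20. Of these, 6 belonged to libraries numbered 428 of the pyraclostrobin experiment. With the fungicide that library had Npy at 2.75 CPM, where the other 3 lay between 41.9 and 48.5, Sst at 31 (others 217 to 248), Penk at 5.49 (20.2 to 21.8) and Scg2 at 217 (662 to 748). With vehicle it had Penk at 14.3 CPM (33.2 to 36.2) and Tac1 at 4.99 (3.89 to 4.05).

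The pair numbered 428 also went the opposite way from the other 3 pairs for 4 genes, a difference that was not tested. The log2 ratio of fungicide over vehicle was -2.21 for Nptx2, against 0.67 to 0.93 in the others, -2.45 for Npy (0.07 to 0.32), -0.58 for Scg2 (0.41 to 0.77) and -0.18 for Vgf (0.83 to 1.06).

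In the screen, trifloxystrobin had Vgf at 1.44 while the other 5 Qo fungicides lay between -0.20 and 0.35. Among cyano pyrethroids at 10 µM, fenpropathrin had Npy at 1.33 (others 0.34 to 0.47) and esfenvalerate had Penk at -0.32 (others 0.50 to 0.66). Among the pyrethroids without the cyano group, bifenthrin had Tac1 at 0.93 (others -0.13 to 0.17). In the 4 diethyltoluamide libraries, 1 had Bdnf at 0.19 (others -0.19 to -0.13) and Scg2 at 0.21 (others -0.25 to -0.17).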

How the results depend on the processing

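Of the 10 genes, the 3 calls in Qo fungicides held under all 32 alternative values, and for topotecan 45 of 47 kept their call, with 6 to 9 genes called and none reversed. Npy and Tac1 were lost there at an adjusted p under 0.01. The count of 6 came from the 5121 variable genes. Sst, Penk and Scg2 are not among these, so under that setting they were not tested in any comparison. For Qo fungicides, no alternative put libraries 702 to 704 in place of library 428. In the counts without the libraries numbered 428, Nptx2 rose with pyraclostrobin (0.80) and Sst stood at -0.36. Over replicated chemicals 5 calls became 3 at an adjusted p under 0.01, 3 with the 5121 variable genes, 8 without the vehicle library that stood apart and 2 to 6 with 1 library left out. Over classes 7 calls became 4 at 0.01, 4 with variable genes, 13 with single libraries in place of medians, 10 with vehicle as the reference and 5 to 11 with 1 chemical left out. With single libraries, the 32 topotecan libraries each entered as a member of the topoisomerase 1 class. The 13 therefore treats libraries of the same chemical as separate members. The cyano comparison had 0 calls, and 0 to 1 with 1 chemical left out. Values above the vehicle range went from 51 to 196 without the library that stood apart and to 261 with the central 95% of vehicle libraries, and values below from 70 to 108 with the latter. The median coefficient between pairs was 0.354 over chemicals, 0.345 without topoisomerase 1 inhibitors and 0.401 by Pearson. For pyraclostrobin 0 calls became 2 at an adjusted p under 0.05, 1 by DESeq2, 1 with no filter, 0 to 2 with 1 library left out, and 6 by edgeR and 5 by DESeq2 without both libraries numbered 428, while the calls over all genes went from 2631 to 4874. With the library number as a replicate block 2 members passed, Cartpt (adjusted p = 0.0021 by edgeR) and Penk (adjusted p = 0.00541 by edgeR), and 3135 genes in all. Deviations of same-numbered libraries correlated above 0.1 for 3 of 4 numbers, but at -0.073 to -0.034 without those numbered 428, and what the numbers share is not stated. Npy changed sign, from 0.05 to -0.053 with no filter, to -0.10 with the replicate block, and between -0.22 and 0.38 with 1 library left out, and did not pass in any of these. The cause of these changes was not tested. The sulforaphane comparison and its alternatives were not run. Depth limits Crh, with 1 to 9 counts, and Tac1, with 0 to 29, in the count table.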
